A study of Homo sapiens with 6 samples.

Results

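The MYC, MAX and MXD network was examined in SK–Hep–1 cells after knockdown of the lncRNA *RAB30-DT*. Its members were taken by gene symbol from GENCODE v44 and comprised 10 of the 62700 genes in the files, namely the activators *MYC*, *MYCN* and *MYCL*, their partner *MAX*, the antagonists *MXD1*, *MXD3*, *MXD4*, *MXI1* and *MNT*, and the MAX-like factor *MLX*. RNA–Seq covered 6 libraries of this cell line, 3 control libraries, titled with a control shRNA and labelled WT for genotype, and 3 libraries of cells with *RAB30-DT* knockdown by shRNA. Stable lines were made in the study by lentiviral transduction and puromycin selection, the labels do not say which of its shRNA vectors the knockdown libraries carry, and no source used here says whether the replicates are separate cultures, so that p-values measure only the spread between these libraries. The authors deposited TPM, in which each gene's level is divided by its length and every library is brought to the same sum, so read numbers are lost and the depth behind each value is unknown.

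MYC proteins bind DNA only as heterodimers with MAX, at the E-box CACGTG and related sites, where they recruit acetyltransferases and promote transcription of genes for growth, ribosome production and metabolism. MXD1, MXI1, MXD3, MXD4 and MNT compete for MAX and for the same sites, and bring in the SIN3 corepressor with its histone deacetylases. MLX forms a parallel arm, in which it pairs with the glucose-responsive factors MondoA (*MLXIP*) and ChREBP (*MLXIPL*). In liver cancer *MYC* is a well-known oncogene, and in many cell types MXD genes rise as cells stop dividing, whereas *MXD3* is known to be expressed in dividing cells.

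*RAB30-DT* itself was at 18.16, 11.51 and 13.91 TPM in control replicates 1, 2 and 3 and at 11.94, 10.85 and 6.5 TPM in knockdown replicates 1, 2 and 3. Its mean was lower in knockdown cells, but the groups overlapped, and its log2 fold change of −0.55 did not pass the test (standard error 0.27, adjusted p = 0.355 from limma). By quantitative PCR, the study reports knockdown of *RAB30-DT* in this cell line, and those values were not examined here. In RNA from whole cultures, fewer cells with a transcript and less of it per cell cannot be told apart, here or for the genes that follow. Of the endothelial markers, 0 of 8 reached a mean of 1 TPM, and *KDR* and *ERG* were at 0 in all libraries, although the study describes these cells as endothelial-derived. Of the hepatocyte markers, 2 of 9 reached it, and *ALB*, *APOB*, *TTR* and *HNF4A* were at 0. Of the mesenchymal markers, 7 of 8 did, led by *VIM* with a mean of 4249 TPM. None of the markers passed the threshold in limma. Without overlap, the hepatocyte gene *SERPINA1* (0.59) was higher and the mesenchymal genes *PDGFRB* (−1.22), *THY1* (−0.54) and *SPARC* (−0.30) lower, on the log2 scale. Among the 7 tested mesenchymal markers, 4 had a positive and 3 a negative log2 fold change, with a median of 0.07. Of these 7, 3 were lower without overlap (42.9%, against 13.4% of all tested genes) and 1 higher (14.3%, against 9.89%). At an unadjusted p under 0.05 there were 5 of the 9 tested marker genes, against 16.8% of all tested genes. With libraries weighted by quality, 2 markers were higher and 3 lower past the threshold, where 23.0% of all tested genes passed. Their part in the results that follow was not tested. Libraries also differed in how levels varied with GC content, and this relation across genes (Spearman's rho) was −0.607, 0.297 and 0.489 in control and −0.523, 0.022 and 0.33 in knockdown replicates 1, 2 and 3, so results with this trend removed are given where they change a member's overlap or a list's count.

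Values were compared as log2(TPM + 1), so that fold changes of low genes are understated, with limma over the 14020 genes whose mean reached 1 TPM and a Benjamini–Hochberg adjusted p under 0.05 as the threshold. Of the 10 members, 8 reached this mean and 0 passed the threshold, against 1.04% of all tested genes. The share of all tested genes that fell past it was 0.670% and the share that rose 0.371%. At an unadjusted p under 0.05 there were 2 members (*MXI1* and *MXD3*), against 16.8% of all tested genes. With arrayWeights, a limma option that weights libraries by quality, 3 members passed, *MXD1*, *MXD3* and *MXI1*, against 23.0% of tested genes. A block on the replicate number let *MXI1* pass, against 6.14% of tested genes, or 8.08% with the GC trend removed as well, and leaving out control replicate 1 let *MXD3* pass, against 3.49%. The groups did not overlap for 1 member, *MLX*, against 23.3% of all tested genes. With the GC trend removed, *MXD4* and *MXI1* lay above control and *MAX*, *MXD3* and *MLX* below it without overlap, against 14% and 19.8% of all tested genes in these directions. By mean, 4 of the tested members were higher in knockdown libraries, all of them antagonists, and 4 were lower, *MYC*, *MAX*, *MLX* and the antagonist *MXD3*.

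**Figure D1:**
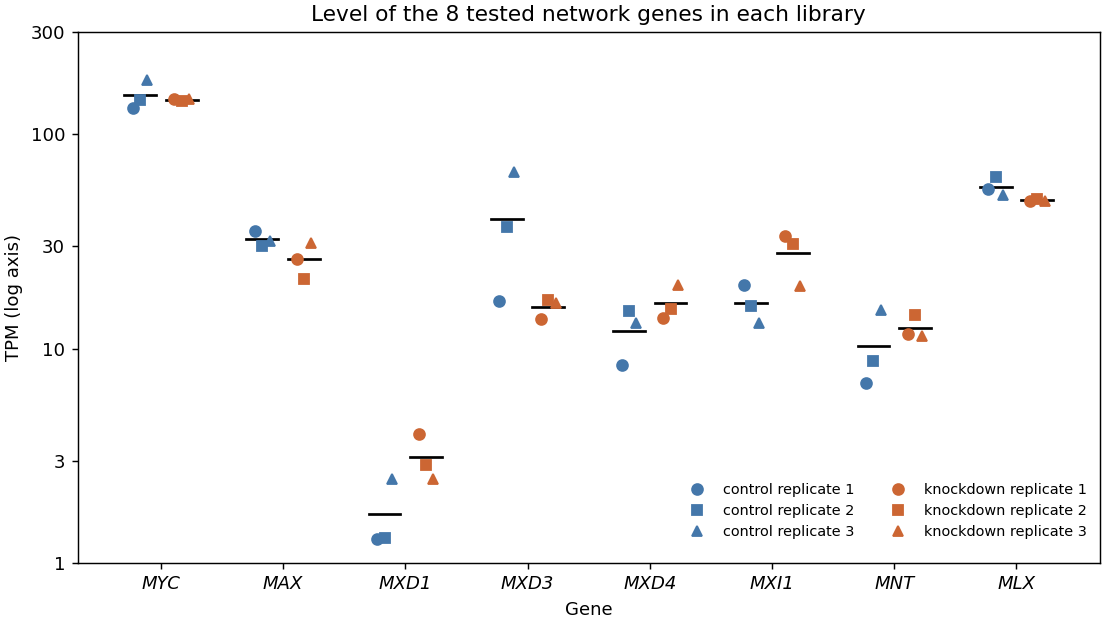
TPM (log axis) of the 8 network genes that passed the filter in each of the 6 libraries, with marker shape for the replicate number and a bar at each group's mean. *MYC* was between 132.9 and 180.4 TPM in every library, and the widest spread was that of *MXD3* in control libraries, from 16.76 to 67.06 TPM.

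Sites of the network's own E-box were sought in the members' promoters, because MYC and MXD proteins are known to act on genes of the network. RefSeq promoters (GRCh38.p14, from 250 bases before to 50 bases after the start) were given for 9 of the 10 members, and CACGTG, a palindrome read alike on both strands, occurred in 3 of them (33.3%), against 12.7% of 10093 symbols of tested genes and 7.26% of all promoter entries. The 3 were *MXD4*, *MNT* and *MLX*, each with 1 match, shown here with the E-box in capitals. The match in *MXD4* (chr4:2262332-2262357, minus strand) starts 238 bases before the start of transcription, that in *MNT* (chr17:2401238-2401263, minus strand) 193 bases before it, and that in *MLX* (chr17:42567040-42567065, plus strand) 50 bases before it. A match is a sequence and not evidence of binding.
MXD4: gccgggccacCACGTGctgttgctaa
MNT: ctgcccgggcCACGTGtgcgcgcgcc
MLX: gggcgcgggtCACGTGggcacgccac

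Among the activators, *MYC* was by far the main transcript. *MYC* (ENSG00000136997.22, plus strand of chromosome 8 of hg38, 127735434 to 127742951) was at 132.9, 145.47 and 180.4 TPM in control replicates 1, 2 and 3 and at 146.15, 143.64 and 146.23 TPM in knockdown replicates 1, 2 and 3. The knockdown libraries lay close together and inside the range of the control libraries. On the log2 scale knockdown minus control was −0.06 (standard error 0.16, adjusted p = 0.880 by limma), a ratio of 0.959 with a 95% interval from 0.745 to 1.23, so changes within that interval are within the error of these libraries. The sign was positive without control replicate 3 (0.06) and with quantile normalization (0.11). In level, *MYC* stood above 93.5% of all tested genes.

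*MYCN* and *MYCL*, paralogues that drive other tumor types, were below the filter. *MYCN* (ENSG00000134323.13, chromosome 2) was listed at 0 TPM in 5 libraries and at 0.07 TPM in knockdown replicate 3. *MYCL* (ENSG00000116990.12, chromosome 1) was at 0.68, 0.36 and 0.73 TPM in control replicates 1, 2 and 3 and at 0.79, 0.41 and 0.66 TPM in knockdown replicates 1, 2 and 3, with overlap of the groups. *MYC* thus made up between 99.46% and 99.75% of the summed TPM of the 3 paralogues in every library.

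*MAX* (ENSG00000125952.21, minus strand of chromosome 14, 65006174 to 65102695) encodes the partner of the MYC proteins and of the antagonists, but not of MLX. It was at 35.33, 30.17 and 31.69 TPM in control replicates 1, 2 and 3 and at 26.12, 21.22 and 31.18 TPM in knockdown replicates 1, 2 and 3. Knockdown replicate 3 lay within the control range and the other knockdown libraries lay below it. Its log2 fold change, −0.31 with a standard error of 0.19, did not pass (adjusted p = 0.459 in limma), and the ratio was 0.806 with a 95% interval from 0.592 to 1.10. Of its 6257 exonic bases, 822 are shared with *FNTB* on the other strand, at a mean of 9.65 TPM. With the GC trend removed the groups no longer overlapped, and the adjusted p was 0.229. *MYC* was more abundant than *MAX* in every library, and the ratio of the summed MYC paralogues to *MAX* was 4.78 ± 0.969 in control and 5.71 ± 1.04 in knockdown cells (SD, n = 3 each), a difference smaller than the SD of either group.

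*MLX* (ENSG00000108788.12, plus strand of chromosome 17, 42567072 to 42573239), which does not pair with MYC, was the second most abundant member. It was at 55.78, 63.19 and 52.26 TPM in control replicates 1, 2 and 3 and at 49.11, 50.08 and 48.82 TPM in knockdown replicates 1, 2 and 3. Every knockdown library lay below every control library, as for 13.4% of all tested genes, yet the log2 fold change was only −0.20 (standard error 0.16, adjusted p = 0.546 from limma), with a 95% interval of the ratio from 0.679 to 1.11. Its TPM gave p = 0.1 in an exact permutation test (two-sided), the smallest that 3 libraries against 3 allow. The groups overlapped with quantile normalization. Of the 4255 exonic bases of *MLX*, 775 are shared with *PSMC3IP* on the other strand, at a mean of 47.6 TPM. The library protocol names no step that marks strand, so it is unknown whether reads there were told apart.

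Among the antagonists, the largest differences were those of *MXI1*, higher by mean in knockdown libraries, and *MXD3*, lower by mean, and neither passed the test. *MXI1* (ENSG00000119950.21, plus strand of chromosome 10, 110207605 to 110287365), whose protein tethers SIN3 to MAX-bound sites, was at 19.88, 15.86 and 13.22 TPM in control replicates 1, 2 and 3 and at 33.42, 30.92 and 19.57 TPM in knockdown replicates 1, 2 and 3. The groups overlapped through knockdown replicate 3, which was just below control replicate 1, and did not overlap with median-of-ratios scaling, with quantile normalization or with the GC trend removed. Knockdown minus control was 0.72 on the log2 scale with a standard error of 0.25 (adjusted p = 0.208 in limma), a ratio of 1.65 with an unadjusted 95% interval from 1.10 to 2.48. The adjusted p was 0.0130 under arrayWeights and 0.0434 under the replicate block, and over all alternatives it ran from 0.0130 to 0.545, with a positive log2 fold change in every one.

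*MXI1* is a known target of HIF, the transcription factor of the hypoxia response, and HIF target genes were higher in the same libraries. Of 25 genes on a list of HIF targets, 22 were tested, of which 20 had a positive log2 fold change, and 9 rose past the threshold (40.9% of those tested, against 0.371% of all tested genes), or 15 with the GC trend removed, where 9.19% of all tested genes passed in either direction. For 18 of them (81.8%) all knockdown libraries exceeded all control libraries, against 9.89% of all tested genes, and the list's median log2 fold change was 1.13 against −0.04. The list, like the others, was chosen with earlier results of these data known, so these shares are a description and not a test. *BNIP3*, a mitophagy receptor, was at 108.33, 97.93 and 100.68 TPM in control and at 493.87, 439.25 and 348.7 TPM in knockdown replicates 1, 2 and 3, and *PDK1*, which restrains pyruvate entry into mitochondria, at 13.88, 8.37 and 6.69 TPM in control and at 39.21, 36.18 and 26.2 TPM in knockdown replicates 1, 2 and 3. The others past the threshold were *BNIP3L* (1.3), *P4HA1* (1.79), *P4HA2* (1.35), *KDM3A* (1.24), *PFKFB4* (2.46), *SLC2A3* (1.46) and *DDIT4* (1.45), and *MIR210HG*, the host of a hypoxia-induced microRNA, had 2.45 (adjusted p = 0.0660). As with *MXI1*, *BNIP3* and *PDK1* were highest in replicate 1 and lowest in replicate 3 among the knockdown libraries, but *DDIT4* was lowest in replicate 1, and *DDIT4*, *PFKFB4*, *P4HA2* and *BNIP3L* were highest in replicate 2. *TXNIP*, a gene of another list given below, had the order of *MXI1* too. Canonical transcripts of *MXI1*, *BNIP3*, *PDK1* and *TXNIP* have 43.75%, 41.89%, 39.46% and 43.75% GC. Those of *DDIT4*, *PFKFB4*, *P4HA2* and *BNIP3L* have 58.03%, 56.27%, 44.95% and 37.37% GC. The part of the libraries' GC trend in these orders was not tested. With the GC trend removed, *MXI1* was at 30.47, 31.14 and 20.66 TPM in knockdown replicates 1, 2 and 3, highest in replicate 2. Without control replicate 2, or without any single knockdown library, 1 of the 9 HIF targets, *BNIP3*, remained past the threshold. The part of the HIF response in the level of *MXI1* was not tested.

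*MXD3* (ENSG00000213347.11, minus strand of chromosome 5, 177301461 to 177312757) was at 16.76, 36.98 and 67.06 TPM in control replicates 1, 2 and 3 and at 13.76, 16.83 and 16.37 TPM in knockdown replicates 1, 2 and 3. Control replicates 2 and 3 lay above all other libraries, while control replicate 1 lay among the knockdown libraries. The difference was −1.11 on the log2 scale with a standard error of 0.43 (adjusted p = 0.247 in limma), a ratio of 0.464 with an unadjusted 95% interval from 0.234 to 0.917. It was −0.65 without control replicate 3 (adjusted p = 0.332) and −1.62 without control replicate 1, where it passed the threshold (adjusted p = 0.0257), as it did with arrayWeights (−1.11, adjusted p = 0.00864). At 65.6% GC its canonical transcript was the most GC-rich of the network, and with the GC trend removed its control libraries were at 22.98, 32.04 and 50.53 and its knockdown libraries at 17.53, 16.77 and 14.61 TPM for replicates 1, 2 and 3, which no longer overlapped (log2 fold change −0.997, adjusted p = 0.0558).

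The level of *MXD3* carries a further limit. Of its 4743 annotated exonic bases, 1148 are shared with *PRELID1*, a gene for a mitochondrial lipid carrier on the other strand with a mean of 394 TPM, and 926 with *RAB24* on the same strand, with a mean of 25.5 TPM. *PRELID1* was at 307.94, 502.1 and 609.64 TPM in control and at 273.16, 307.53 and 363.06 TPM in knockdown replicates 1, 2 and 3, so that it too was highest in control replicates 2 and 3. *RAB24* had its highest level in knockdown replicate 3, with 31.87 TPM. The part of reads from *PRELID1* in the values of *MXD3* was not tested.

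The other antagonists were higher by mean in knockdown libraries, with differences near or within the spread. *MXD1* (ENSG00000059728.11, plus strand of chromosome 2, 69897688 to 69942945), the founding member of the family and a gene of differentiating cells, was at 1.29, 1.31 and 2.46 TPM in control replicates 1, 2 and 3 and at 3.99, 2.86 and 2.45 TPM in knockdown replicates 1, 2 and 3. Only control replicate 3 reached the knockdown range, by a margin at the rounding of the files over the lowest knockdown library. Its log2 fold change of 0.62, with a standard error of 0.29, did not pass (adjusted p = 0.329 in limma) and, since the gene is low, depended on the pseudocount, with 0.87 at 0.1 and 0.28 at 5. With arrayWeights it was 0.71 and the adjusted p 0.0348. *SNRNP27* on the same strand, with a mean of 36.9 TPM, shares 237 of the 6351 exonic bases of *MXD1*.

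*MXD4* (ENSG00000123933.17, minus strand of chromosome 4, 2247432 to 2262109) was at 8.37, 14.94 and 13.12 TPM in control replicates 1, 2 and 3 and at 13.94, 15.3 and 19.71 TPM in knockdown replicates 1, 2 and 3. The groups overlapped through control replicate 2. Its value of 0.42 (standard error 0.25, adjusted p = 0.443 from limma) was 0.51 with the GC trend removed, where the groups did not overlap and the adjusted p was 0.0711. *MNT* (ENSG00000070444.15, minus strand of chromosome 17, 2384073 to 2401104), the antagonist expressed in most cells alongside MYC, was at 6.94, 8.75 and 15.21 TPM in control replicates 1, 2 and 3 and at 11.65, 14.29 and 11.42 TPM in knockdown replicates 1, 2 and 3. Control replicate 3 was the highest of all 6 libraries, and the log2 fold change of 0.31 (standard error 0.28, adjusted p = 0.611 from limma) was 0.09 when control replicate 1 was left out and 0.61 when control replicate 3 was.

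**Figure D2:**
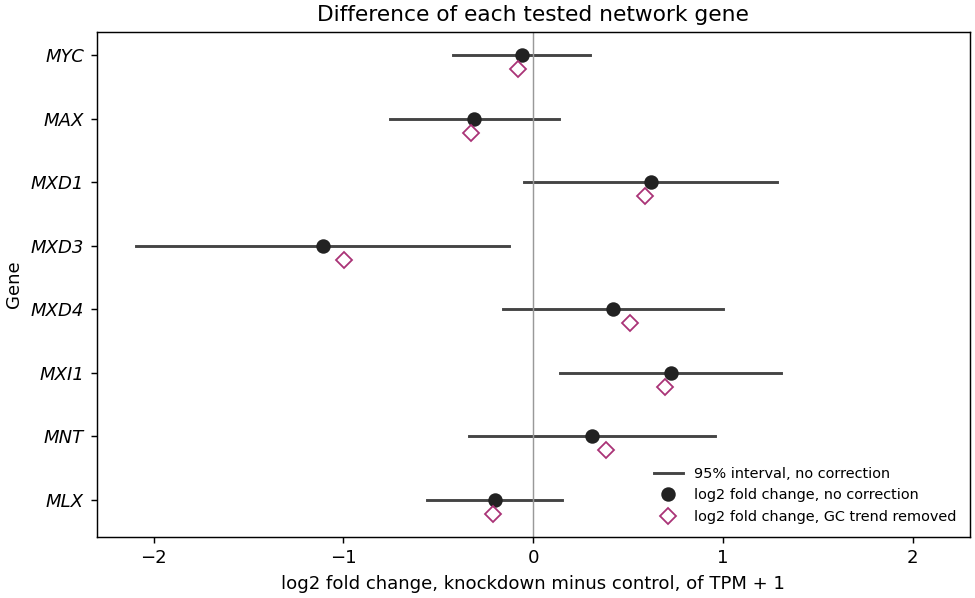
log2 fold change (knockdown minus control, of TPM + 1) of the 8 tested network genes, with the limma estimate as a black point, its unadjusted 95% interval as a line, and the estimate with the GC trend removed as an open diamond. The interval leaves out 0 only for *MXD3* (−1.11) and *MXI1* (0.72), and the diamonds lie close to the points, at −0.997 and 0.69 for these genes.

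In order of mean TPM over all libraries, the network ran from *MYC* through *MLX*, *MAX*, *MXD3*, *MXI1*, *MXD4*, *MNT* and *MXD1* to *MYCL* and *MYCN*. *MYC* was above *MLX*, and *MLX* above *MAX*, in every library. Below them the order differed between the groups. By mean, *MXD3* (40.3 TPM) stood above *MAX* (32.4 TPM) in control cells, whereas in knockdown cells *MXI1* (28.0 TPM) was above *MAX* (26.2 TPM) and *MXD4* (16.3 TPM) above *MXD3* (15.7 TPM). The ranges of *MXI1*, *MXD4* and *MNT* overlapped in control cells, and those of *MXI1* and *MAX*, and of *MXD4* and *MXD3*, in knockdown cells, so these neighbours in the order did not differ beyond their spread.

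The balance of activators and antagonists was described by summed TPM, with no test, as the sums are scores over chosen genes. The 3 MYC paralogues summed to 154 ± 24.7 TPM in control and 146 ± 1.67 TPM in knockdown cells (SD, n = 3 each). The 5 antagonists summed to 53.24, 77.84 and 111.1 TPM in control replicates 1, 2 and 3 and to 76.76, 80.2 and 69.52 TPM in knockdown replicates 1, 2 and 3. Their ratio to the activators was 0.399, 0.534 and 0.613 in control and 0.522, 0.557 and 0.473 in knockdown replicates 1, 2 and 3, with means of 0.515 ± 0.109 and 0.517 ± 0.0421 (SD, n = 3 each). The control libraries spanned the whole knockdown range, so no shift of the summed balance was seen beyond the spread.

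The composition of the antagonists differed more than their sum. *MXD3* made up 31.5%, 47.5% and 60.4% of the summed antagonist TPM in control and 17.9%, 21.0% and 23.6% in knockdown replicates 1, 2 and 3, without overlap of the groups. *MXI1* made up 37.3%, 20.4% and 11.9% in control and 43.5%, 38.6% and 28.2% in knockdown replicates 1, 2 and 3, with overlap. Without *MXD3*, a choice made after its values were seen, the other antagonists summed to 36.48, 40.86 and 44.01 TPM in control and to 63, 63.37 and 53.15 TPM in knockdown replicates 1, 2 and 3, and their ratio to the activators was 0.265 ± 0.0198 and 0.410 ± 0.0423 (SD, n = 3 each). Shares of 1 sum are tied to each other, so a lower share of *MXD3* raises those of the others.

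**Figure D3:**
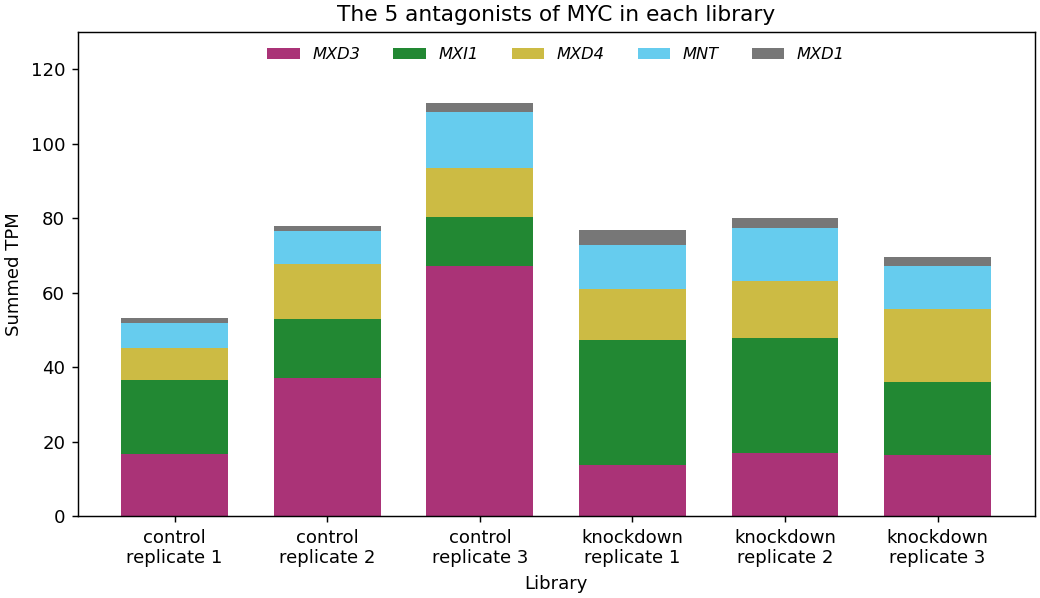
Summed TPM of *MXD3*, *MXI1*, *MXD4*, *MNT* and *MXD1* as stacked bars for each of the 6 libraries. The whole bars run from 53.24 to 111.1 TPM in control and from 69.52 to 80.2 TPM in knockdown libraries, and the *MXD3* part is largest in control replicates 2 and 3.

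The partners of MAX and MLX outside the 10 members differed by less than their spread. *MGA*, a large MAX partner of a repressive complex, had 12.9 ± 2.11 TPM in control and 12.6 ± 2.43 TPM in knockdown cells (SD, n = 3 each; log2 fold change −0.03, adjusted p = 0.956 from limma). *MLXIP* had 18.5 ± 3.78 and 17.4 ± 2.44 TPM (SD, n = 3 each; −0.08, adjusted p = 0.885 from limma). Their 95% intervals of the ratio, from 0.690 to 1.38 and from 0.674 to 1.33, leave room for moderate changes in either direction. *MLXIPL*, the liver form, was listed at 0 TPM in 5 libraries and at 0.12 TPM in knockdown replicate 3. Of 16 other bHLH factors that bind E-boxes, 14 were tested, of which 6 had a positive and 8 a negative log2 fold change. None passed the threshold in limma, and 1 had an unadjusted p under 0.05, against 16.8% of all tested genes. With arrayWeights 1 was higher and 1 lower, where 23.0% of all tested genes passed.

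The MLX arm has a well-known readout in *TXNIP*, an arrestin-like inhibitor of glucose uptake that MondoA and MLX induce. It was at 28.28, 21.95 and 19.41 TPM in control and at 171.25, 154.54 and 107.34 TPM in knockdown replicates 1, 2 and 3, and rose past the threshold (log2 fold change 2.58, standard error 0.23, adjusted p = 0.00477 from limma), also without each single library. It was the only one of the 11 tested genes on a list of 14 MondoA and ChREBP targets to pass (9.09%, against 0.371% of all tested genes that rose), and 7 had a positive and 4 a negative log2 fold change, with a median of 0.10. With the GC trend removed 2 were called, both higher, where 9.19% of all tested genes passed. *HK2*, a hexokinase, was at 22.08, 25.31 and 37.7 TPM in control and at 50.92, 52.95 and 42.29 TPM in knockdown replicates 1, 2 and 3, without overlap, but did not pass (0.79, adjusted p = 0.145 from limma). In the same libraries *MLXIP* and *MLX* had log2 fold changes of −0.08 and −0.20, given above, which did not pass.

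Cofactors through which the network acts were mostly lower by mean. Of the SIN3 corepressor, which the antagonists recruit, 15 of 16 tested genes had a negative log2 fold change, with a median of −0.31 against −0.04 for all tested genes, and for 5 (31.2%) the knockdown libraries all lay below the control libraries, against 13.4% of all tested genes. At least 11 were negative under every alternative. There were 3 at an unadjusted p under 0.05 (16.8% of all tested genes), and 4 were lower with arrayWeights, where 23.0% of all tested genes passed. *RBBP4*, a histone-binding subunit shared with other chromatin complexes, was the only one past the threshold (6.25%, against 0.670% of all tested genes), and 4 fell with the GC trend removed, where 9.19% of all tested genes passed. It was at 252.56, 205.66 and 187.76 TPM in control and at 60.75, 64.23 and 48.52 TPM in knockdown replicates 1, 2 and 3 (log2 fold change −1.88, standard error 0.18, adjusted p = 0.00733 from limma), and missed it without control replicate 2 (adjusted p = 0.0562). *HDAC1*, a deacetylase of the complex, had 160 ± 19.2 and 106 ± 6.93 TPM (SD, n = 3 each; −0.59, adjusted p = 0.119 from limma), and *ING1*, a histone reader of the complex, 20.4 ± 9.19 and 12.7 ± 0.953 TPM (SD, n = 3 each; −0.56, adjusted p = 0.370 from limma).

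Of 17 coactivators of MYC, all tested, 14 had a negative log2 fold change, with a median of −0.26, and 7 (41.2%) lay below control without overlap, against 13.4% of all tested genes. None passed the threshold in limma, where 4 had an unadjusted p under 0.05 (16.8% of all tested genes), 4 fell with arrayWeights (23.0% of all tested genes passed) and 2 with the GC trend removed (9.19%). *RUVBL1*, an ATPase of acetyltransferase and remodelling complexes, was at 126.16, 127.76 and 131.44 TPM in control and at 69.21, 82.07 and 84.26 TPM in knockdown replicates 1, 2 and 3 (−0.71, adjusted p = 0.0726 from limma). *HCFC1*, a chromatin adaptor that binds MYC, had a log2 fold change of −0.76 (adjusted p = 0.141), and *ZBTB17*, which encodes MIZ1 and with MYC represses genes, −0.44 (adjusted p = 0.343).

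Of 22 genes that set the stability of MYC protein, 18 had a negative log2 fold change, with a median of −0.30. Without overlap, 7 lay below control and 2 above it (31.8% and 9.09%, against 13.4% and 9.89% of all tested genes). The threshold was passed by 1 of them, lower (4.55%, against 0.670% of all tested genes), and with the GC trend removed by 2 higher and 6 lower, where 9.19% of all tested genes passed. *AURKA*, a mitotic kinase that can shield MYC proteins from degradation, was at 148.79, 149.62 and 173.91 TPM in control and at 77.5, 73.6 and 74.97 TPM in knockdown replicates 1, 2 and 3 (−1.05, standard error 0.14, adjusted p = 0.0252 from limma). *FBXO32*, a ubiquitin ligase subunit known to target MYC, was at 2.14, 1.33 and 1.75 TPM in control and at 4.78, 6.48 and 5.12 TPM in knockdown replicates 1, 2 and 3 (1.24, adjusted p = 0.0626). *PPP2R5A*, a regulatory subunit of the phosphatase PP2A, had −0.83 (adjusted p = 0.133). RNA levels do not show protein levels of MYC or of these enzymes.

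Of 13 genes that act on *MYC* RNA or transcription, 10 had a negative log2 fold change, with a median of −0.22, 4 (30.8%) lay below control without overlap, against 13.4% of all tested genes, and 0 passed the threshold in limma. At an unadjusted p under 0.05 there were 3 (16.8% of all tested genes), 3 were lower with arrayWeights (23.0% of all tested genes passed) and 1 with the GC trend removed (9.19%). *ELAVL1*, an RNA-binding protein, had 94.0 ± 11.7 TPM in control and 55.7 ± 2.7 TPM in knockdown cells (SD, n = 3 each; −0.74, adjusted p = 0.0800 from limma). *HNRNPK*, which binds DNA and RNA of *MYC*, had −0.40 (adjusted p = 0.149), and *IGF2BP1*, which stabilizes *MYC* mRNA, −0.44 (adjusted p = 0.306). *MYC* itself had a log2 fold change of −0.06 in the same libraries, as given above.

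Genes that MYC is known to induce were mostly lower by mean in knockdown libraries, while *MYC* itself differed by −0.06. Over 4 lists with 77 such genes, 76 were tested, of which 65 had a negative and 11 a positive log2 fold change, with a median of −0.35 against −0.04 for all tested genes. For 34 (44.7%) the knockdown libraries lay below control without overlap, against 13.4% of all tested genes, and 3 (3.95%) lay above without overlap, against 9.89%. Only *PRPS2* and *CTPS1* passed the threshold (2.63% of those tested, against 0.670%, both lower). With the GC trend removed, 44 of the 76 lay below without overlap, against 19.8% of all tested genes, and 19 were lower and 1 higher past the threshold, where 9.19% of all tested genes passed. The median stayed negative under all 18 alternatives, between −0.40 and −0.23. Many of these genes also rise with cell division, whichever factor drives it, and are not a measure of MYC activity alone.

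The 4 lists were not alike. In nucleotide and polyamine synthesis, 16 of 19 genes had a negative log2 fold change, with a median of −0.45, and 2 fell past the threshold, or 7 with the GC trend removed (9.19% of all tested genes passed). *PRPS2*, an enzyme that makes the ribose donor of nucleotides, was at 25.73, 18.67 and 24.55 TPM in control and at 5.84, 6.17 and 3.81 TPM in knockdown replicates 1, 2 and 3 (−1.94, standard error 0.23, adjusted p = 0.0219 from limma). *CTPS1*, which makes CTP, was at 355.5, 315.15 and 384.43 TPM in control and at 200.99, 207.08 and 161.25 TPM in knockdown replicates 1, 2 and 3 (−0.89, standard error 0.16, adjusted p = 0.0447 from limma). Both fell without overlap of the groups. *RRM2*, a subunit of ribonucleotide reductase that dividing cells need, was at 464.28, 401.79 and 754.72 TPM in control and at 305.89, 267.77 and 258.52 TPM in knockdown replicates 1, 2 and 3 (−0.91, adjusted p = 0.112 from limma).

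In cell cycle and translation, 19 of 19 tested genes had a negative log2 fold change in the reported fit and at least 17 under every alternative, with a median of −0.42, and 0 passed the threshold in limma. At an unadjusted p under 0.05 there were 10, against 16.8% of all tested genes. With arrayWeights 11 were lower, where 23.0% of all tested genes passed, and with the GC trend removed 5, where 9.19% did. *E2F1*, a driver of S phase, was at 25.17, 40.08 and 78.59 TPM in control and at 12.55, 17.55 and 19.86 TPM in knockdown replicates 1, 2 and 3 (−1.34, standard error 0.38, adjusted p = 0.143 from limma). Its control libraries were ordered as those of *MXD3*, with replicate 3 highest and replicate 1 lowest. Canonical transcripts of *E2F1* and *MXD3* have 61.64% and 65.6% GC. The relation to GC content (Spearman's rho) also rose, from −0.607 in control replicate 1 to 0.489 in control replicate 3. The part of this GC trend in the order of *E2F1* was not tested. *E2F2*, its close relative, had −0.78 (adjusted p = 0.219), and *SRSF1*, a splicing factor that MYC induces, 375 ± 57.2 and 207 ± 17.4 TPM (SD, n = 3 each; −0.84, adjusted p = 0.0559 from limma).

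In the nucleolus, where ribosomes are made, 18 of 20 genes had a negative log2 fold change, with a median of −0.33, and 0 passed the threshold in limma. At an unadjusted p under 0.05 there were 6 (16.8% of all tested genes), 5 were lower with arrayWeights, close to the 23.0% of all tested genes that passed there, and 4 with the GC trend removed (9.19%). *DKC1*, which modifies ribosomal RNA, had 150 ± 6.61 and 102 ± 4.65 TPM (SD, n = 3 each; −0.55, adjusted p = 0.105 from limma), *UBTF*, a factor of RNA polymerase I, −0.55 (adjusted p = 0.159), and *POLR3D*, a subunit of RNA polymerase III, 0.61 (adjusted p = 0.224). In glycolysis and mitochondria the directions were mixed, with 12 negative and 6 positive among 18 genes, a median of −0.10 and 0 past the threshold in limma. There were 7 at an unadjusted p under 0.05 (16.8% of all tested genes), 2 higher and 6 lower with arrayWeights (23.0%), and 1 higher and 3 lower with the GC trend removed (9.19%). There *SLC7A5*, an amino acid transporter, had −0.77 (adjusted p = 0.119), *HSPD1*, a mitochondrial chaperone, −0.59 (adjusted p = 0.145), and *HK2*, given above, 0.79.

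Promoters of these targets held the E-box more often than promoters at large, as 26 of the 67 target genes with a promoter entry (38.8%) had at least 1 CACGTG, against 12.7% of tested genes with an entry. The lists were made of genes already known as targets of MYC, which binds this site, so the share is not a test. *CDK4*, the kinase of G1 phase, and *APEX1*, a DNA repair enzyme, chosen after the search because they held the most, had 3 each, shown here with the E-box in capitals. The sites of *CDK4* lie on the minus strand at chr12:57752511-57752536, chr12:57752491-57752516 and chr12:57752396-57752421, and those of *APEX1* on the plus strand at chr14:20455111-20455136, chr14:20455172-20455197 and chr14:20455193-20455218. *CDK4* had −0.46 on the log2 scale (adjusted p = 0.221 in limma) and *APEX1*, with as many E-boxes, −0.01 (adjusted p = 0.978 in limma).
CDK4 site 1: gtcaagcggtCACGTGtgatagcaac
CDK4 site 2: agcaacagatCACGTGgctgccatcg
CDK4 site 3: gggtggcggtCACGTGcccagaacgt
APEX1 site 1: gcgtctccgtCACGTGgtgtcagaca
APEX1 site 2: cgcctctgatCACGTGaccaggtccg
APEX1 site 3: gtccgctaccCACGTGggggctcagc

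Over the tested genes with a promoter entry, the E-box did not go with lower levels in knockdown libraries. The median difference on the log2 scale was −0.06 in 8821 genes that lack the E-box, −0.03 in 1147 genes with 1 and 0.02 in 141 genes with 2 or more, and 1.12%, 1.13% and 0.00% of them passed the threshold. Genes that share a symbol are each counted here, so these classes hold a few more genes than there are symbols. With the GC trend removed the medians were −0.06, −0.03 and 0.07, and with quantile normalization −0.01, 0.02 and 0.13. The shares past the threshold were then 9.70%, 10.6% and 14.9%, and 1.17%, 1.13% and 1.42%, so their order by number of E-boxes turned round with the setting. Median GC content rose with the number of E-boxes, from 48.2% to 49.0% and 52.5%. These medians are a description over genes, which are not replicates.

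Genes that MYC is known to repress moved in both directions. Of 16 such genes 13 were tested, of which 6 had a positive and 7 a negative log2 fold change, with a median of −0.17 that was 0.02 with quantile normalization, and 3 passed the threshold (23.1%, against 1.04% of all tested genes). *CDKN1A*, the cell cycle inhibitor p21, was at 73.92, 122.13 and 87.28 TPM in control and at 232.09, 282.8 and 402.34 TPM in knockdown replicates 1, 2 and 3, and rose (1.68, standard error 0.25, adjusted p = 0.0293 from limma). *THBS1*, a matrix protein that inhibits vessel growth, fell from 170 ± 13.6 to 71.8 ± 10.8 TPM (SD, n = 3 each; −1.24, adjusted p = 0.0252 from limma), and *CLU*, a secreted chaperone, from 73.9 ± 4.50 to 23.6 ± 2.91 TPM (SD, n = 3 each; −1.61, adjusted p = 0.00892 from limma). Without control replicate 2, or without any single knockdown library, none of *AURKA*, *PRPS2*, *CTPS1*, *CDKN1A*, *THBS1* and *CLU* passed the threshold, and each did without control replicate 1.

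**Figure D4:**
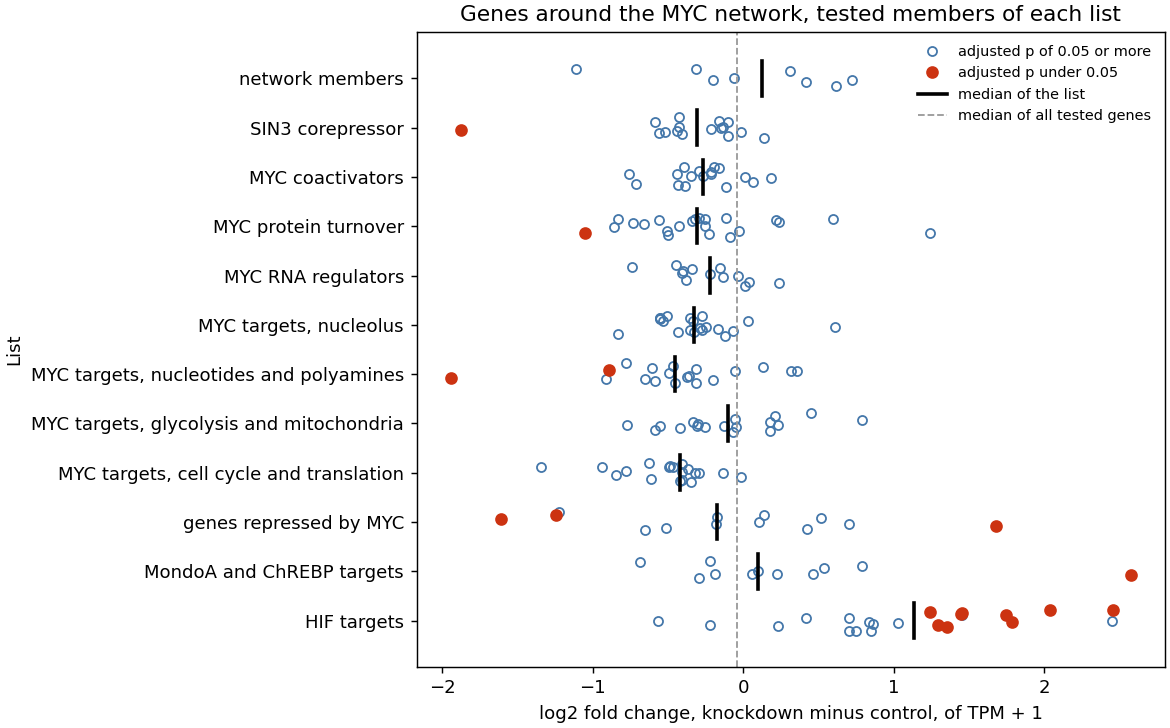
log2 fold change (knockdown minus control, of TPM + 1) of each tested gene of 12 lists around the network, with filled red points for genes past an adjusted p of 0.05, a black bar at each list's median and a dashed line at the median of all tested genes (−0.04). The network itself is spread on both sides of 0, the 4 lists of MYC targets lie mostly to the left, and HIF targets to the right with a median of 1.13.

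A 7-base sequence, GAGTGAA, had been found in earlier work on these same libraries to be frequent in the 3′UTRs of genes that fell, and the members were searched for it on the transcript strand. Of the 10 canonical transcripts in GENCODE v44, 3 (30%) held it, against 12.4% of 11672 tested protein-coding genes with a 3′UTR, namely *MAX* (chr14:65075601-65075627, minus strand), *MXI1* (chr10:110286821-110286847, plus strand) and *MLX* (chr17:42572525-42572551, plus strand), each once and each in the 3′UTR part of an exon. The sites are shown with GAGTGAA in capitals. *MAX* and *MLX* were lower and *MXI1* higher by mean in knockdown libraries, and none of the 3 passed the threshold. The site of *MLX* lies within the stretch shared with *PSMC3IP*. *RBBP4*, *PRPS2* and *THBS1*, which fell, also held 1 site each, while *AURKA*, *CTPS1* and *CLU*, which fell as well, held 0. *SLC2A3*, which rose, and *HK2*, higher without passing, held 1 each too. Because the sequence was picked from genes that fell in these libraries, its presence in such genes is a description and not a test.
MAX: atttgaatctGAGTGAAttgtacctat
MXI1: aagtagatgtGAGTGAAaaactgcatg
MLX: agcaggtcctGAGTGAAgccgtgggcc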

How the data were processed

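RNA–Seq libraries of SK–Hep–1 cells, 3 control and 3 *RAB30-DT* knockdown, were grouped by their titles. Per the study's methods, the authors trimmed reads with fastp (v0.23.2), aligned them with STAR (v2.7.10b) and quantified genes with RSEM (v1.3.0), whereas the submitters' processing notes list fastp, HISAT2 (2.0.5) and hg38. The authors deposited gene-level TPM, with 2 decimals. The study's methods give GENCODE Release 45 as annotation, and all 62700 versioned identifiers matched Release 44, used here for names, hg38 positions, canonical transcripts and their GC content. Promoters are from RefSeq.

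log2(TPM + 1) of the 14020 genes that reached a mean of 1 TPM was fitted with limma 3.58.1 (R 4.3.3; lmFit, eBayes with trend, 2-sided, no normalization between libraries, Benjamini–Hochberg adjustment), and the fit was tested on simulated data. The GC trend of each library was removed by loess (span 0.3). Exact permutation tests used scipy 1.17.1. Members and lists were chosen with earlier results of these data known. Genes named are all members, *MGA*, *MLXIP*, *MLXIPL* and *RAB30-DT* and, per list, called genes and the 3 largest changes without overlap, with exceptions said. Alternatives are named in the closing section. Protein sequences and transcript variants were not analysed here.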

Additional observations from a re-analysis of the deposited data

How the results depend on the processing

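The alternatives were other pseudocounts, filters, scalings, eBayes options, library weights, a replicate block, removal of the GC trend, and each library left out in turn. Of the 10 members 0 passed the threshold, against 3 with arrayWeights, 1 with a replicate block, 1 with the block and the GC trend removed together, and from 0 to 1 when a library was left out. The 1 was *MXI1* under the block (0.72, and 0.69 with the GC trend removed) and *MXD3* without control replicate 1, where it ran from −1.62 to −0.65 over the libraries left out. With arrayWeights, which weighted control replicate 2 by 3 and knockdown replicate 2 by 4.39, these were *MXD1* (0.71), *MXD3* (−1.11) and *MXI1* (0.83). Of the tested members, 7 kept their direction in every alternative. *MYC* turned positive with quantile normalization (0.11) and ran from −0.16 to 0.063 when a library was left out. *MGA* turned positive with median-of-ratios scaling (0.0018) and arrayWeights (0.11) and ran from −0.13 to 0.12 when a library was left out, and *MLXIP* from −0.22 to 0.058. The summed TPM of the MYC paralogues, with a difference of −7.53 (knockdown minus control), had one of 10.2 with quantile normalization.

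The number of called genes, 146 of all tested and 17 on the lists, was 13 and 4 without a filter, 1289 and 54 with the GC trend removed, 3218 and 81 with arrayWeights, 861 and 44 with a replicate block, 1133 and 52 with the block and the GC trend removed, and ran from 12 to 489 and from 3 to 30 when a library was left out. The most were called without control replicate 1 and the fewest without control replicate 2 (leaving out knockdown replicate 1, 2 or 3 gave 18, 15 or 16). Of the 146, 52 were higher in knockdown libraries, as were 68 of 136 with median-of-ratios scaling and 78 of 161 with quantile normalization. Without a filter, more genes enter the adjustment, and the cause of the other shifts was not tested. The groups share replicate numbers, but across genes the departures of same-numbered libraries from their group means had r of 0.41, 0.0359 and 0.279, and 2 of 3 libraries in each group correlated best with their own number, and no pairing was assumed. TPM keep no depth, so the precision rests on 3 libraries per group.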
